A study of Mus musculus with 4 samples.

Results

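The 6 apolipoprotein genes Apoa1, Apoa2, Apob, Apoc1, Apoe and Apom were followed in mouse embryonic stem cells (mESCs) with and without Npac. They were 6 of the 56748 genes in the deposited table and were chosen by name, with the difference between Npac KO and WT libraries in these data already known. The difference between the groups is therefore described for them and not tested. The study sequenced RNA of E14 cells, a feeder-independent mouse ES cell line, in 4 libraries. The 2 WT libraries (WT1 and WT2) came from unmodified E14 cells, and the 2 KO libraries (KO1 and KO2) from E14 cells in which Npac, listed under its gene symbol Glyr1, had been knocked out with CRISPR/Cas9. The study describes 2 KO clones, and its RNA sequencing results call KO1 and KO2 knockout cell lines. Culture was on gelatin without feeder cells, in serum with LIF. The labels do not say whether the libraries of a group came from separate cultures, so the tests below measure only the spread between these libraries.

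Apolipoproteins are the protein part of lipoproteins, the particles that carry cholesterol and triglycerides between tissues. ApoB forms the frame of the particles made by liver and intestine, and ApoA1 and ApoA2 are the main proteins of high-density lipoprotein. ApoC1, ApoE and ApoM can move between particles. ApoE is the ligand by which cells take up particles through a family of lipoprotein receptors, and it is made by many cell types outside the liver.

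The total count lay between 15850805 and 16965120 reads per library. Counts were scaled by library size and TMM factor to CPM, and 18157 genes passed edgeR's filter on low counts. A gene was called where the quasi-likelihood test of edgeR, with Benjamini-Hochberg adjustment over all genes tested, gave a value below 0.05 and the groups differed by over 1.5-fold. Of the genes tested, 21.7% were called, 11% as higher and 10.7% as lower in KO. For 65.7% the KO libraries lay entirely above or below the WT libraries. Glyr1 had 3961 and 3115 reads in WT1 and WT2 and 744 and 888 in KO1 and KO2, a log2 fold change of -2.14 ± 0.23 (SE; edgeR, adjusted p = 0.00174). Genes of chromosomes 8 and 11 lay 0.51 and 0.50 above the median of all genes (log2, KO against WT), whereas the chromosomes of the 6 genes, 1, 7, 9, 12 and 17, lay between -0.19 and -0.04.

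Apoe and Apoa2 carried the largest differences in abundance among the 6 genes. The bases upstream of both are shown so that the gene with most reads can be set beside the gene that was almost unread in WT. They are the 250 bases before the RefSeq start (GRCm38.p6) that coincides with the start of the GENCODE transcript, for Apoa2 at chr1:171224804-171225053 on the plus strand and for Apoe at chr7:19699189-19699438 on the minus strand, each written 5′ to 3′ along its gene, with any of the letters TATAAA in capitals.
Apoa2: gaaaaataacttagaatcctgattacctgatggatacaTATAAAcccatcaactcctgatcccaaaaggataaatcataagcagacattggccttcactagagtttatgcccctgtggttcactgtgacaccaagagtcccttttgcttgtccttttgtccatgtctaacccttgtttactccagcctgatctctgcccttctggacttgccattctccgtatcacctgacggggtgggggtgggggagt
Apoe: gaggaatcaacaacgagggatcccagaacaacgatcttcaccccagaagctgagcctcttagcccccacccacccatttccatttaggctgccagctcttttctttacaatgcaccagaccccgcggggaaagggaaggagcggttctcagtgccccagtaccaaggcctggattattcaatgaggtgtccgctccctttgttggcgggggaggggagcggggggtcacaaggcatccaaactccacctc

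The window of Apoa2 held TATAAA, the TATA box letters, 212 bases before the start, and that of Apoe did not hold them. Whether the letters serve as a TATA box at that distance was not tested. Windows were found for 5 of the 6 genes by symbol, not for Apoc1. The RefSeq starts used for Apoa1, Apob and Apom lay 50, 29 and 249 bases from the GENCODE start. On both strands of these 5 windows, TATAAA occurred in those of Apoa2 and Apob. AGGTCA (the core nuclear receptor motif), AGATAA (the GATA motif), GTTAAT (part of the HNF1 motif) and CACGTG (the E-box) occurred in none of the 5. Of 32851 RefSeq windows of this length, 12.4% held TATAAA, 14% AGGTCA, 9.99% AGATAA, 6.43% GTTAAT and 6.02% CACGTG. G and C made up 46.4% of the Apoa2 window and 57.2% of the Apoe window.

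Apoe, the receptor ligand, was the most abundant of the 6 genes in every library. The table lists it as ENSMUSG00000002985 on chromosome 7, 19430034 to 19433113, minus strand. It had 37114 reads in WT1 and 14676 in WT2, against 10190 in KO1 and 10677 in KO2. WT1 stood well above the 3 other libraries, and both KO libraries lay below both WT libraries. On the CPM scale this was 1635 ± 1124 in WT and 636 ± 27.4 in KO (SD, n = 2 each). The WT libraries differed from each other by 2.89-fold and the KO libraries by 1.06-fold. The fitted log2 fold change was -1.36 ± 0.43 (SE). It was -0.43 without WT1 and -1.94 without WT2, so the size of the difference rested on WT1. By FPKM, which corrects for gene length, Apoe ranked 23 in WT1 and 98 in WT2 among all genes listed, and 135 and 125 in the KO libraries.

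Apoc1, which slows the uptake of particles by receptors, lies 3448 bases from Apoe in the same cluster (ENSMUSG00000040564, chromosome 7, 19423406 to 19426585, minus strand). Its reads numbered 454 and 607 in WT1 and WT2 and 584 and 626 in KO1 and KO2. The 4 libraries were close to each other, at 32.2 ± 3.55 CPM in WT and 36.9 ± 0.992 CPM in KO (SD, n = 2 each). The fit gave a log2 fold change of 0.19 ± 0.20 (SE). It was 0.058 without WT1. The levels of these neighbours in the genome therefore did not keep a fixed ratio. There were 81.7 reads of Apoe for each read of Apoc1 in WT1 and 24.2 in WT2, but 17.4 in KO1 and 17.1 in KO2.

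Apoa2, a protein of high-density lipoprotein, went from almost no reads in WT to a moderate level in KO. It is listed as ENSMUSG00000005681 on chromosome 1, 171052623 to 171053948, plus strand. It had 0 reads in WT1 and 2 in WT2, against 214 in KO1 and 342 in KO2. Both KO libraries were far above both WT libraries. Over the groups this was 556 reads against 2, a ratio of 277 after scaling, with a 95% exact binomial interval of 76.3 to 2294 that covers counting error only. In KO, Apoa2 stood at 16.8 ± 4.24 CPM (SD, n = 2). By FPKM it ranked 2306 in KO1 and 1447 in KO2, against 20248 in WT2. Its fitted log2 fold change of 7.94 ± 0.68 (SE) depends on the prior count used for a group with so few reads and is no bound.

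Apom, the carrier of sphingosine-1-phosphate on high-density lipoprotein, was lower in KO at a low level (ENSMUSG00000024391, chromosome 17, 35347973 to 35351026, minus strand). It had 22 and 28 reads in WT1 and WT2 and 5 and 8 in KO1 and KO2. The groups did not overlap, and the KO mean was 25.8% of the WT mean on the CPM scale. The log2 fold change was -1.93 ± 0.57 (SE).

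Apob, for the frame protein of liver and intestine particles, and Apoa1, for a main protein of high-density lipoprotein, were near the limit of detection. Apob (ENSMUSG00000020609, chromosome 12, 8027648 to 8066835, plus strand) had 21 and 15 reads in WT1 and WT2 and 8 and 14 in KO1 and KO2. The highest KO library and the lowest WT library differed by 1 read, and the log2 fold change was -0.74 ± 0.58 (SE). Apoa1 (ENSMUSG00000032083, chromosome 9, 46139878 to 46141764, plus strand) had 2 and 11 reads in WT1 and WT2 and 4 and 1 in KO1 and KO2. Its groups overlapped and it did not pass the filter. Over the groups it had 5 reads in KO and 13 in WT, a ratio of 0.383 after scaling. The exact interval of 0.107 to 1.15 covers counting error only and leaves out the spread between libraries. As the contrast was known when the genes were chosen, the interval is no test, and nothing on a difference is read from it.

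**Figure D1:**
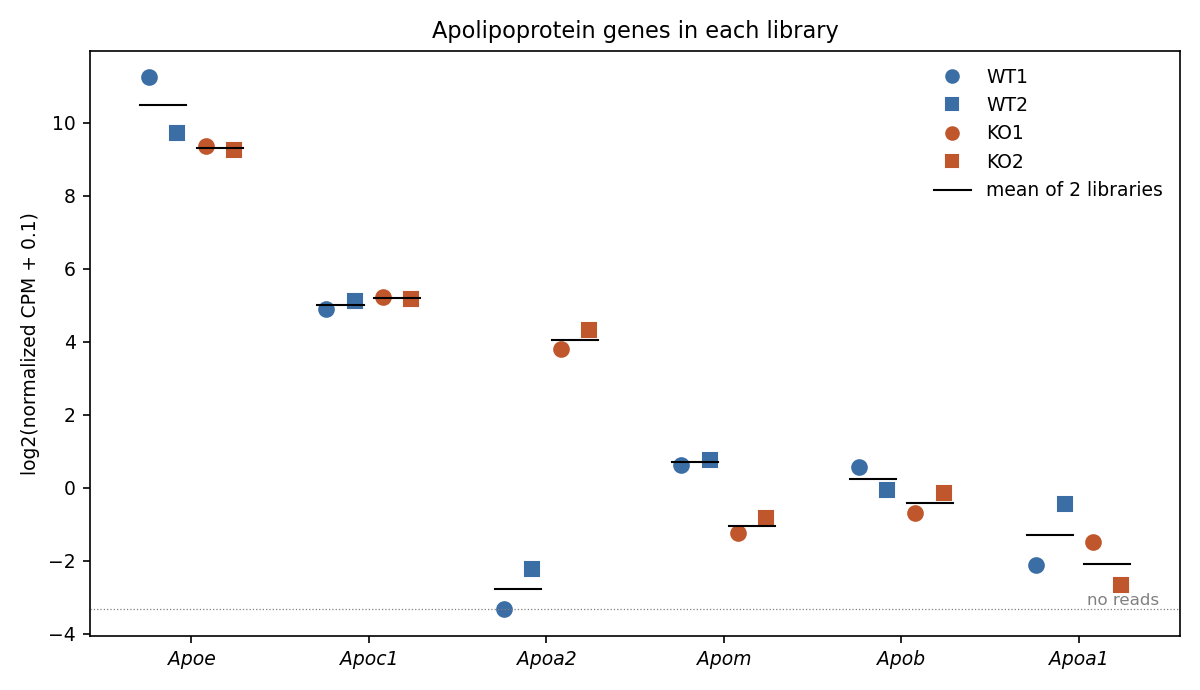
Normalized level of each apolipoprotein gene in each library, as log2(CPM + 0.1), with WT libraries in blue, KO libraries in orange and a line at the mean of the 2 libraries of a group. Apoe in WT1 stands above its 3 other libraries, Apoc1 is nearly level, and Apoa2 goes from 0 and 2 reads in WT to 214 and 342 in KO.

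Of the 6 genes, 5 passed the filter. Their calls are not given, as the contrast was known when they were chosen. The KO libraries lay above the WT libraries for Apoa2 and Apoc1 and below them for Apoe, Apom and Apob, beside 65.7% of all genes without overlap. Because these genes were selected on this contrast, nothing is read from this count. Within the 6 genes the make-up of the message changed. Per length, Apoe gave 96.5% and 88.9% of their summed FPKM in WT1 and WT2 and 80.0% and 77.0% in KO1 and KO2. The share of Apoa2 was 0.0482% in WT2 and 6.69% and 9.83% in KO1 and KO2, and that of Apoc1 was 3.39% and 10.6% in WT and 13.2% and 13.0% in KO. The sum itself, mostly Apoe, was 1170 and 438 in WT and 382 and 368 in KO. No listed gene overlapped any of the 6 in position. In a bulk library, fewer cells expressing a gene and less RNA per cell cannot be told apart.

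The genes whose centred log2 CPM across the 4 libraries came closest to each member were looked up among the tested protein-coding genes with a mean of at least 100 reads. The 3 closest to Apoa2 were Trim12a, with no reads in WT and 218 and 186 in KO, Rpl29, with 45 and 48 reads in WT and 6971 and 7011 in KO, and Ubd, with none in WT and 296 and 190 in KO. Their root mean square differences from Apoa2 were 0.464, 0.520 and 0.590. Those closest to Apoe were Nktr, Niban1 and Tpp1, at 0.0466 to 0.0831, each highest in WT1 by the way they were chosen. Nktr, for example, had 5385, 2125, 1399 and 1605 reads in WT1, WT2, KO1 and KO2. Those closest to Apoc1 were Atp5a1, Shkbp1 and Rin2, to Apom Isoc2a, Mroh7 and Pex2, and to Apob Tmem51, Rhbdd1 and Tet3.

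Among 27 other apolipoprotein genes, 9 passed the filter, 1 rose and 1 fell, and 16 had fewer than 10 reads in every library. Saa3, an acute-phase apolipoprotein, had 6 and 3 reads in WT1 and WT2 and 70 and 60 in KO1 and KO2, a log2 fold change of 3.81 ± 0.60 (SE; edgeR, adjusted p = 0.00641). Apod, a lipocalin that binds small lipids, had 265 and 366 reads in WT and 101 and 84 in KO, a log2 fold change of -1.76 ± 0.30 (edgeR, adjusted p = 0.00870), and was not called without KO2 (edgeR, adjusted p = 0.0583). Clu, the most abundant of the 27 by mean FPKM over the 4 libraries, ranged from 355 reads in WT1 to 1135 in WT2, with a log2 fold change of 0.19 ± 0.41 (edgeR, adjusted p = 0.769). Its direction rested on the WT library used, at -0.39 without WT1 and called at 1.12 without WT2 (edgeR, adjusted p = 1.4e-05). Apof had 11 and 36 reads in WT and 4 and 0 in KO (edgeR, adjusted p = 0.0536). Apol6 had 11 and 5 reads in WT and 29 and 36 in KO (edgeR, adjusted p = 0.0542). Apol7a, Apol7d, Apol8 and Apoc4 did not pass the test with all 4 libraries either, with log2 fold changes of 1.98, 0.25, -0.52 and 0.97. Apof was called without WT1 (-4.01) or KO1 (-7.56), Apol6 without WT1 (2.73) and Apol7a without WT2 (3.86), and these 3 were also called with the replicate block and with no filter on low counts. Saa2 reached 18 reads in KO1 and Apol7b 24 in WT2, and neither was tested. Apoa4 and Apoc3, which share a cluster with Apoa1, had no reads in any library, and Apoc2, next to Apoc4 in the Apoe cluster, had 2 in all.

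The genes that act with apolipoproteins were read from lists of particle assembly, receptors, lipolysis and transfer, cholesterol efflux and transcriptional regulators. Together with the other apolipoproteins, 86 genes were tested, of which 4 rose and 15 fell, 22.1% against 21.7% of all genes. Their median log2 fold change was 0.07, against 0.0015 over all genes tested.

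In particle assembly, 1 of 16 tested genes rose and 4 fell. Mttp, which loads lipid onto ApoB, had 362 and 436 reads in WT1 and WT2 and 133 and 173 in KO1 and KO2, a log2 fold change of -1.39 ± 0.25 (SE; edgeR, adjusted p = 0.00974). P4hb, its partner subunit and a chaperone of the endoplasmic reticulum, rose by 1.14 ± 0.22 (edgeR, adjusted p = 0.0118). P4hb lies on chromosome 11, and with chromosome medians removed its log2 fold change was 0.65 (edgeR, adjusted p = 0.0716). Among the genes of the enzymes that store fat and cholesterol as esters, 3 fell, Soat2 with a log2 fold change of -1.21 (edgeR, adjusted p = 0.0209), Dgat2 with -1.65 (edgeR, adjusted p = 0.0419) and Dgat1 with -0.73 (edgeR, adjusted p = 0.0370). Soat1, the other sterol esterification gene of the list, was not called, with a log2 fold change of 0.24 (edgeR, adjusted p = 0.381). Dgat1 and Soat1, like Sort1 among the receptors, were named after their values were seen. Dgat1 and Dgat2 were not called from FPKM with limma, nor was Dgat2 with upper-quartile normalization. With chromosome medians removed neither was called, although the log2 fold changes were close to those above, at -1.62 for Dgat2 and -0.66 for Dgat1 (edgeR, adjusted p = 0.0512 and 0.0547). Without KO1, Mttp (edgeR, adjusted p = 0.0751) and Dgat2 were not called, and with either KO library left out Soat2 and Dgat1 were not.

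Among the receptors, 1 of 18 tested genes rose and 4 fell, and receptors that bind ApoE moved in both directions. Vldlr, the VLDL receptor, had 838 and 301 reads in WT1 and WT2 and 56 and 128 in KO1 and KO2, a log2 fold change of -2.70 ± 0.57 (SE; edgeR, adjusted p = 0.016). Sorl1, a sorting receptor that binds ApoE, fell by 1.11 on the log2 scale (edgeR, adjusted p = 0.00967). Lrp1, a remnant receptor, fell by 0.89 (edgeR, adjusted p = 0.0158) and Sort1, a sorting receptor for ApoB, by 0.76 (edgeR, adjusted p = 0.0252). Lrp8, an ApoE receptor of the brain, rose by 0.85 (edgeR, adjusted p = 0.0446). Lrpap1, a receptor chaperone and the most abundant of the list by mean FPKM, had a log2 fold change of -0.04 (edgeR, adjusted p = 0.912). Vldlr, Sort1 and Lrp8 were not called from FPKM with limma. Lrp1, Sort1 and Lrp8 were not called with either KO library left out, nor Sorl1 without KO2 (edgeR, adjusted p = 0.0831).

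Cholesterol efflux held the fall with the smallest adjusted p of the pathway lists. Abca1, the transporter that loads lipid onto ApoA1 and ApoE, had 2347 and 1098 reads in WT1 and WT2 and 154 and 143 in KO1 and KO2. Both WT libraries were far above KO, WT1 most. The log2 fold change was -3.57 ± 0.42 (SE; edgeR, adjusted p = 0.00245). The other 8 tested genes of the list were not called, and 1 gene was higher in KO at an unadjusted p under 0.05 in edgeR. Npc2, the most abundant by mean FPKM, had a log2 fold change of -0.30 (edgeR, adjusted p = 0.269). DESeq2 called 1 gene of the list as higher, Abcg8, which had no reads in WT and 9 and 16 in KO, did not pass edgeR's filter and was named after its values were seen.

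In lipolysis and transfer, 2 of 11 tested genes fell. None rose by edgeR, DESeq2 or limma, and 0 were higher at an unadjusted p under 0.05 in edgeR. Lipc, hepatic lipase, had 23 and 17 reads in WT1 and WT2 and 3 in each KO library (edgeR, adjusted p = 0.0253). Pon2, a paraoxonase, fell by 1.71 on the log2 scale (edgeR, adjusted p = 0.0394). Pltp, the phospholipid transfer protein and the most abundant by mean FPKM, had a log2 fold change of -0.37 (edgeR, adjusted p = 0.497). It was 0.30 without WT1, and was called at -0.84 without WT2 (edgeR, adjusted p = 0.00018). Neither call of this list was kept from FPKM with limma, that of Lipc was not kept with DESeq2, and that of Pon2, at -1.59, not with chromosome medians removed (edgeR, adjusted p = 0.0564). Both were lost with either KO library left out, and that of Lipc also without WT1.

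Among the transcriptional regulators, 1 of 23 tested genes rose and 3 fell. Cebpb fell by 1.66 on the log2 scale (edgeR, adjusted p = 0.0101) and Rxra, the partner of many nuclear receptors, by 1.06 (edgeR, adjusted p = 0.0131). Nr1h4, the bile acid receptor FXR, had 11 reads in each WT library and 1 and 0 in KO (edgeR, adjusted p = 0.0248). Srebf1, a regulator of lipid synthesis on chromosome 11, rose by 0.83 (edgeR, adjusted p = 0.0216), and with chromosome medians removed its log2 fold change was 0.34 (edgeR, adjusted p = 0.242). Srebf2, which controls cholesterol synthesis and had the highest mean FPKM over the 4 libraries, had a log2 fold change of 0.44 (edgeR, adjusted p = 0.124). Neither Nr1h4 nor Srebf1 was called from FPKM with limma, Nr1h4 was not called with DESeq2, and these and Rxra were not called with either KO library left out.

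**Figure D2:**
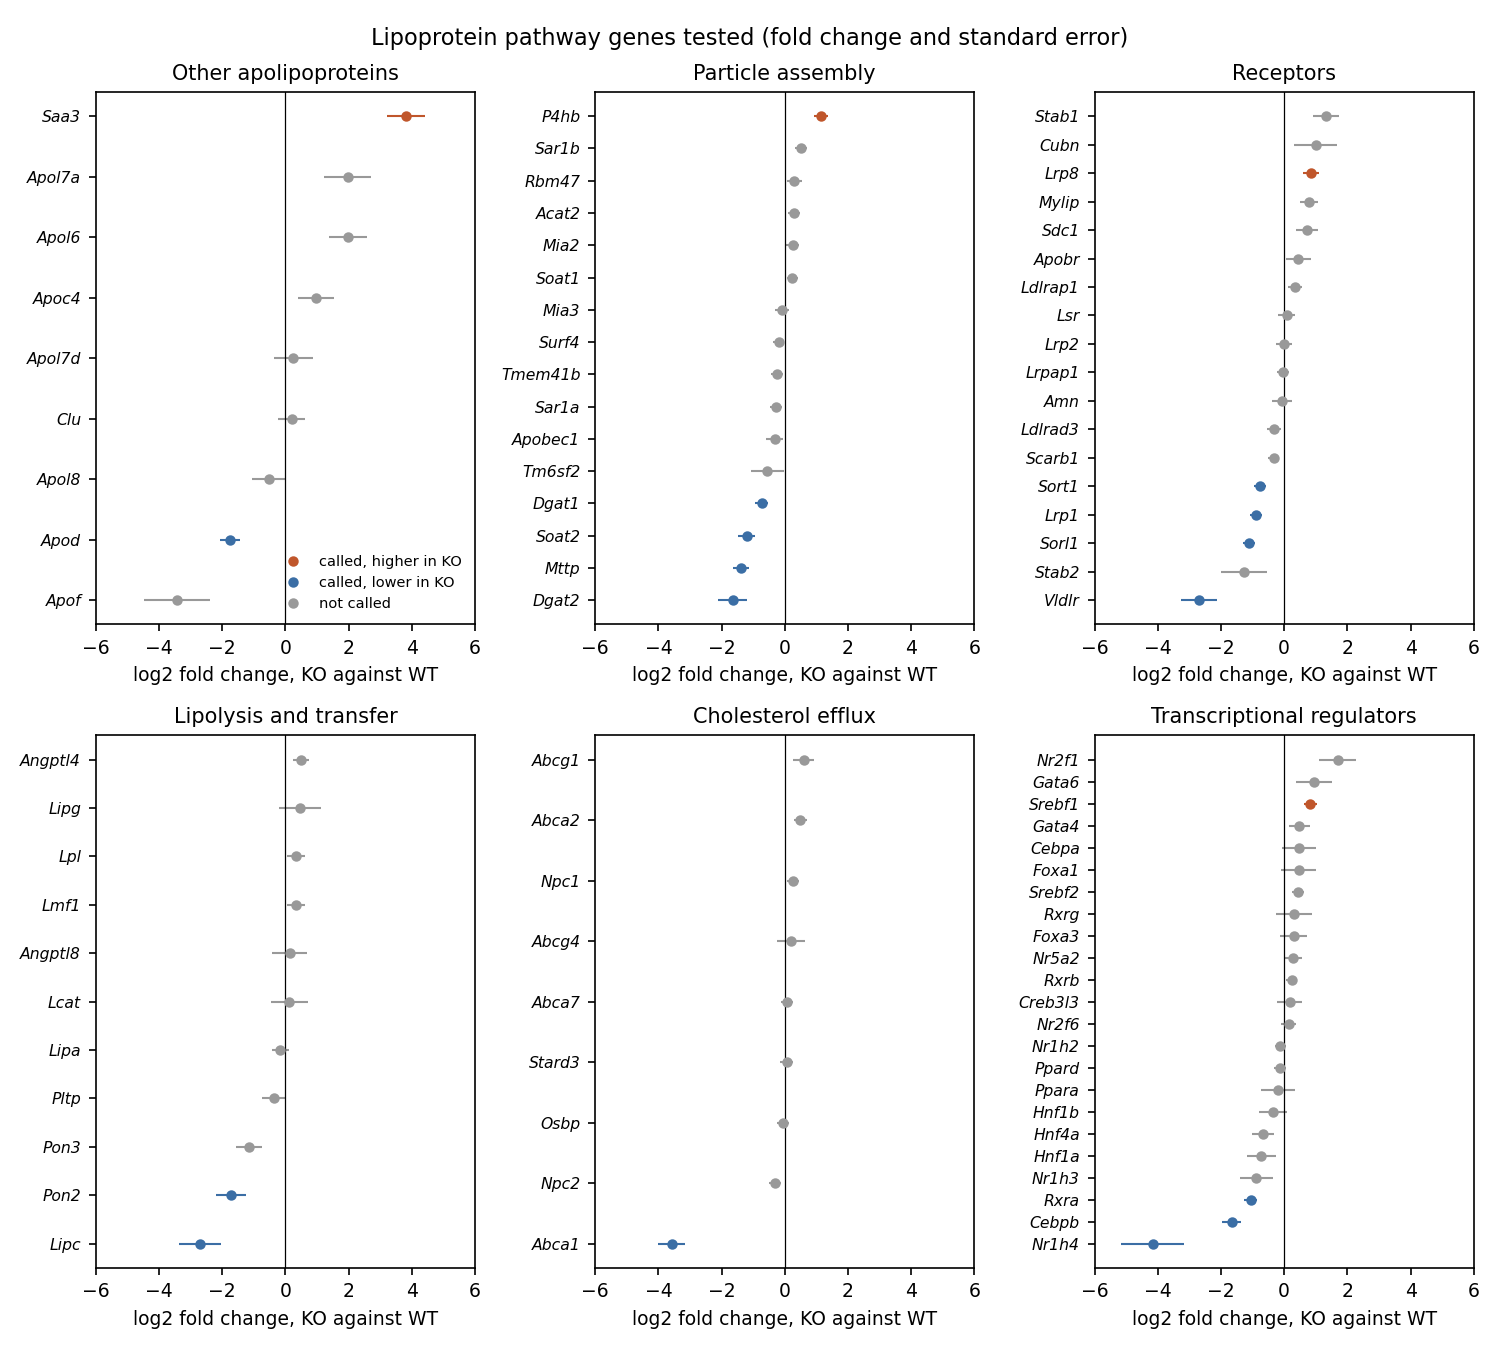
Log2 fold change (KO against WT, positive is higher in KO) with its standard error for the tested genes of the 6 lists, coloured by edgeR call. Abca1, Lipc, Vldlr and Nr1h4 lie farthest below 0 among the called genes and Saa3 lies farthest above.

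Position in the genome was not used to choose the 6 genes. Of the 50 tested genes nearest to them, 5 on each side of each gene with those of Apoe and Apoc1 shared and at most 3115 kb away, 3 rose and 4 fell, 14% against 21.7% of all genes. With all 4 libraries, none of the 10 around Apoa2 was called by DESeq2, limma or edgeR with its low-count filter and no block. An unadjusted p under 0.05 in edgeR was seen for 6, and the median log2 fold change of the 10 was 0.51. The nearest of them, Tomm40l, whose start lies 9.04 kb away, had 104 and 135 reads in WT1 and WT2 and 202 and 224 in KO1 and KO2, with a log2 fold change of 0.83 ± 0.29 (SE; edgeR, adjusted p = 0.0784). With WT2 left out, the log2 fold change of Tomm40l was 0.92 and that of Pcp4l1 3.39. With WT1 left out, that of Cfap126 was 1.88 and that of Usp21 0.62. With the replicate number as a block, Pcp4l1 and Tomm40l were called, at 1.95 and 0.84 (edgeR, adjusted p = 0.0126 and 0.0337), and Pcp4l1 also without the filter on low counts. These settings called more genes everywhere, 6122 over all genes with the block and 5661 without the filter, against 3945 in the main fit. Pcp4l1, Cfap126 and Usp21 were named after their values were seen. In the Apoe and Apoc1 cluster, Bcam, a laminin receptor 60.0 kb from Apoe and the most abundant neighbour, had 7269 and 6869 reads in WT and 1467 and 1824 in KO. Its log2 fold change was -2.12 ± 0.20 (edgeR, adjusted p = 0.00110). The genes between Bcam and Apoe, Tomm40 and Nectin2, were not called, with log2 fold changes of 0.42 and -0.20. Among the neighbours of Apoa1, Nxpe4, 1933 kb away, fell by 2.95 and Pcsk7, 322 kb away, by 1.12 (edgeR, adjusted p = 0.0110 and 0.0222), and among those of Apob, Ubxn2a, 3099 kb away, rose by 1.16 (edgeR, adjusted p = 0.0239). The 3 other calls, named after their values were seen, were Rexo2, 2240 kb from Apoa1, at 0.77, Hs1bp3, 336 kb from Apob, at -0.65 and Prrc2a, 20.1 kb from Apom, at 0.67. From FPKM with limma, Bcam was the only one of these 7 still called. Pcsk7, Rexo2, Hs1bp3 and Prrc2a were not called with either KO library left out, Prrc2a also without WT2 and Ubxn2a without KO1. With chromosome medians removed, Hs1bp3 was at -0.55 and not called (edgeR, adjusted p = 0.0615).

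**Figure D3:**
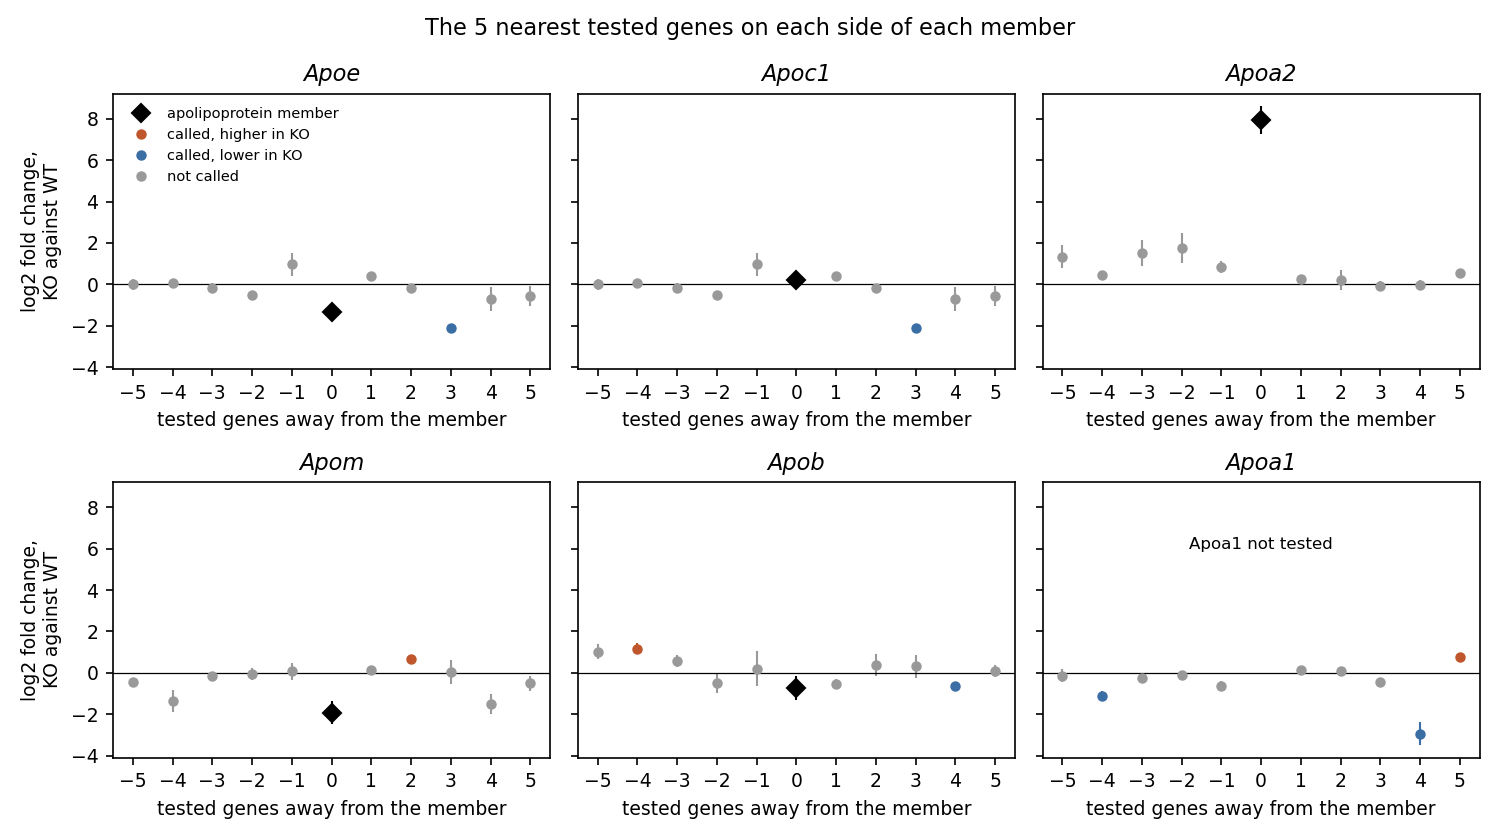
Log2 fold change (KO against WT) with its standard error for each apolipoprotein gene (black diamond) and the 5 nearest tested genes on each side, in the order of the deposited table. Apoa2 lies at 7.94, its 10 neighbours have a median of 0.51, and Bcam lies 3 tested genes from Apoe at -2.12.

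Markers of cell types known to make apolipoproteins were read beside these results. Of 16 ES cell markers, all passed the filter, 1 rose, 4 fell and 11 were not called. The called share was 31.2%, against 21.7% of all genes. The WT libraries had a summed CPM of 9815 and 7525 and the KO libraries of 6698 and 6305, in the same order of libraries as Apoe. Zfp42 fell by 2.64 (edgeR, adjusted p = 0.000704), Tbx3 by 2.53, Klf4 by 1.32 and Tfcp2l1 by 1.24 on the log2 scale. Klf2, named after its values were seen, rose by 0.97 (edgeR, adjusted p = 0.0481), and with chromosome medians removed its log2 fold change was 0.45 (edgeR, adjusted p = 0.294). Dppa5a, the most abundant by mean FPKM, had a log2 fold change of 0.27 (edgeR, adjusted p = 0.324). The summed level of 30 extraembryonic endoderm markers, from the embryonic tissue that makes Apoa1, Apoa2 and Apob, was 1026 and 927 CPM in WT1 and WT2 and 991 and 931 in KO1 and KO2. Of 23 tested, Lamb1 and Sparc rose and Sox7, Lama1 and Srgn fell, and Sparc, on chromosome 11, was not called with chromosome medians removed (edgeR, adjusted p = 0.54). Other markers of this list were read in both groups and not called, among them Gata4, Trf, Hnf4a and Cited1. Gata4 had 102 and 162 reads in WT1 and WT2 and 150 and 219 in KO1 and KO2. Trf had 160 and 412 in WT and 397 and 464 in KO, and Hnf4a 122 and 133 in WT and 67 and 95 in KO. Cited1 had 3 and 27 in WT and 62 and 82 in KO. These genes were not picked by the rule for named genes. Of the 30 markers, 7 had fewer than 10 reads in every library. Fgb, which also marks hepatocytes, had no reads, and Afp, Ttr and Foxa2 had at most 3 in any library. Amn and Lrp2 were read in every library and not called. Amn had 124 and 127 reads in WT1 and WT2 and 105 and 136 in KO1 and KO2. Lrp2 had 573 and 456 reads in WT1 and WT2 and 454 and 594 in KO1 and KO2. The part of extraembryonic endoderm cells in the Apoa2 reads was not tested. The 18 hepatocyte markers summed to 5.57 and 8.13 CPM in WT and 3.35 and 3.47 in KO, 5 of them had no reads in any library, and Alb had at most 1. Of the 3 tested, Cps1 fell, with 17 and 19 reads in WT and 2 in each KO library (edgeR, adjusted p = 0.0176), a call not made with DESeq2, from FPKM with limma or with either KO library left out. Ahsg, the most abundant, did not pass the test, but did with the replicate block (edgeR, adjusted p = 0.0462) and with at least 10 reads required in every library.

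The 13 macrophage markers summed to 31.2 and 20.03 CPM in WT1 and WT2 and 34.7 and 33.2 in KO1 and KO2, mostly from Cd68, which is not particular to macrophages. With all 4 libraries none of the 3 tested was called by edgeR, DESeq2 or limma, 1 had an unadjusted p under 0.05 in edgeR, and C1qc had no reads. Without WT1 the log2 fold change of Cd68 was 0.85. With all 4 libraries and chromosome medians removed it was -0.004 (edgeR, adjusted p = 0.993). The 11 fibroblast or feeder markers summed to 1243 and 625 CPM in WT and 1569 and 1126 in KO, mostly from Fn1, which was called as higher in KO without WT1 and with the replicate block, and Col3a1, Dcn and S100a4 had no reads. Of the 6 tested, Col1a1 rose, with a log2 fold change of 1.29 (edgeR, adjusted p = 0.0308) and 0.79 with chromosome medians removed (edgeR, adjusted p = 0.13). Col1a1, Sparc and Klf2 were not called from FPKM with limma. The ES cell sum, highest in WT1 and lower in KO, had the same order of libraries as Apoe and Abca1. Its part in those differences was not tested.

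**Figure D4:**
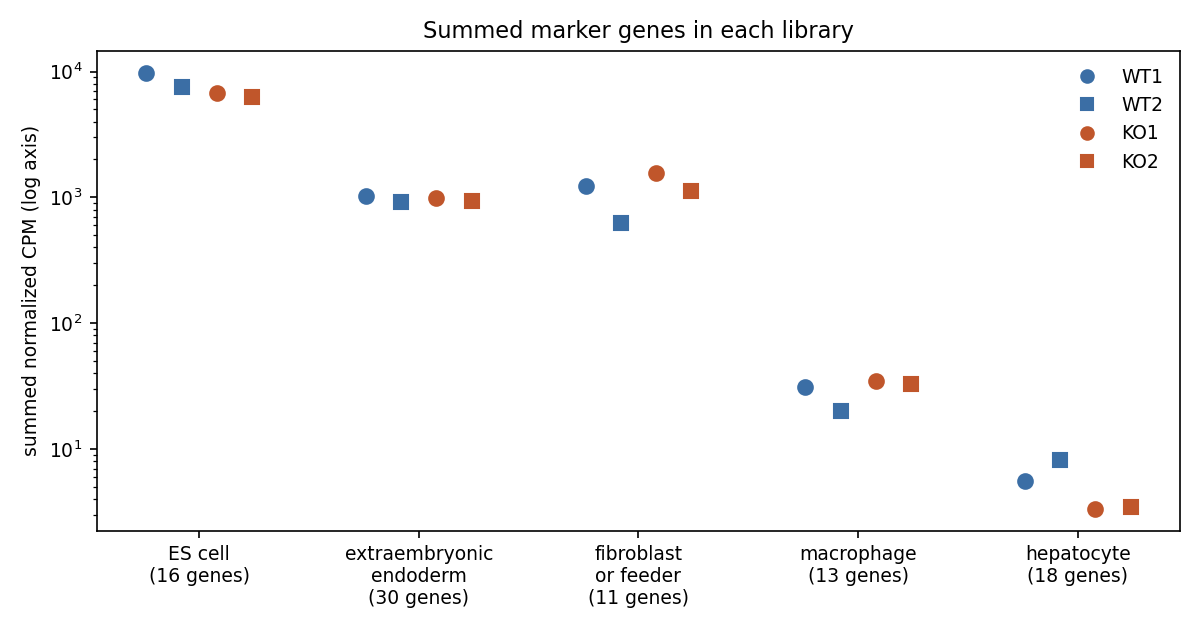
Summed normalized CPM of each marker list in each library, on a log axis, with WT in blue and KO in orange. The ES cell sum falls from 9815 in WT1 to 6305 in KO2, the extraembryonic endoderm sum stays between 927 and 1026, and the hepatocyte sum is below 10 CPM in every library.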

How the data were processed

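RNA from 2 WT and 2 Npac KO libraries of E14 cells was sequenced by the study as 150-bp paired reads. The submitters' processing notes name CASAVA, HISAT2 2.0.5, featureCounts 1.5.0-p3 and mm10, and the strand setting is not given in the sources used here. The authors deposited the raw count of reads on each gene. The FPKM values deposited by the authors are these counts over gene length and 1 size constant per library. Coordinates are printed as deposited. Of 21222 protein-coding genes, 406 had a start within 100 bases of the GRCm38 RefSeq start, so the deposited coordinates are not those of GRCm38 and were not mixed with the RefSeq windows, which were matched by symbol.

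The tests ran in edgeR 4.0.16 under R 4.3.3 (filterByExpr, TMM, quasi-likelihood test, all 4 libraries, group as the only term), with DESeq2 1.42.0 and limma 3.58.1 as alternatives. P-values were adjusted by Benjamini-Hochberg over 18157 genes, and genes were called at an adjusted p below 0.05 and over 1.5-fold difference. Of the genes listed, 24063 were without reads. The common biological coefficient of variation was 0.235. The procedure was tested on simulated data.

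The 6 genes, the lists and the rules were chosen with earlier results of these data known. Named genes are the 6 genes, Glyr1, up to 4 called genes with the largest change and the most abundant gene of each list and of the neighbours, other apolipoproteins with at least 10 reads in a library, and the 3 genes most like each member. Some genes of the receptor list are not reported here and were left out of its counts. Alternatives were other normalizations, filters and tools, a replicate block, FPKM with limma and leaving out each library. Taking the chromosome medians out of the KO libraries was added after seeing the data.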

Additional observations from a re-analysis of the deposited data

How the results depend on the processing

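With 2 libraries a group, the counts of calls depended on single libraries. Over all genes, 3945 were called, 2367 from log2(FPKM + 0.1) and 2307 from log2(FPKM + 1) with limma-trend, and 1647 to 6955 when 1 library was left out. Of all list genes, 31 were called, 18 under either FPKM setting, and 15 to 49 with a library left out. Of the pathway genes, 19 were called, 10 under either FPKM setting, and 7 to 28 with a library left out. Of the neighbours, 7 were called, 2 from log2(FPKM + 0.1), 1 from log2(FPKM + 1), and 2 to 12 with a library left out. The lowest counts came from leaving out a KO library and the highest over all genes from leaving out WT2. A fit that leaves 1 library in a group assumes that it varies like the other group. Calls lost when KO1 or KO2 was left out are named beside them, and the marker genes Cps1, Col1a1, Sparc and Klf2 also lost theirs, whereas those of Abca1, Vldlr, Cebpb, Saa3 and Bcam were kept with any 1 library left out.

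The fitted log2 fold change of Apoa2 was 7.94, 4.83 from log2(FPKM + 1) and 7.08 to 11.07 with a library left out. That of Apom was -1.93, -0.85 from log2(FPKM + 1) and -2.20 to -1.71 with a library left out. That of Apoe was -1.94 to -0.43, that of Apoc1 0.058 to 0.31 and that of Apob -1.09 to -0.39 with a library left out. A pseudocount of 1 FPKM is larger than the level of Apom in KO and of Apoa2 in WT. No alternative turned the direction of a tested member. The cause of the other shifts was not tested.

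WT and KO libraries share the numbers 1 and 2. The WT1 to WT2 and KO1 to KO2 differences correlated at 0.332 across 18157 genes, over only 2 pairs and with no label that ties the numbers to a day or batch. With the number as a replicate block, 6122 genes, 47 list genes and 12 neighbours were called.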
